A study of Homo sapiens with 18 samples.

Results

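CTCF regions at protein-coding promoters were the CTCF-bound regions of HEK293T cells whose strongest point lay 1 kb or less from where a protein-coding gene starts, its transcription start site (TSS). Peaks of the 6 CTCF lists that shared at least 1 bp were merged, and the summit of a merged region was that of its peak with the highest −log10 q-value. Of 69985 merged CTCF regions on the autosomes, 6532 (9.33%) had such a summit and the other 63453 did not. The members lay at 7065 of 19111 autosomal protein-coding genes (37.0%), taking the annotated 5′ end of each gene in GENCODE release 44 (hg38) as its TSS. For 4127 genes (21.6%) a promoter region was found in all 6 CTCF libraries.

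CTCF is a zinc finger protein that binds a long, partly degenerate DNA motif and, together with the cohesin ring, anchors chromatin loops and insulates domains. Most CTCF sites lie far from genes, but a part lies at promoters, where CTCF can hold enhancers near the start of transcription or, as at the clustered protocadherins, take part in choosing which start is used. Histone H3 acetylated at lysine 27 (H3K27ac) marks active promoters and enhancers. Valproic acid (VPA) inhibits histone deacetylases of class I and class IIa, enzymes that remove this acetylation.

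Chromatin immunoprecipitation sequencing (ChIP-seq) was carried out on HEK293T, a human embryonic kidney line that carries the SV40 large T antigen. Untreated cells (CTRL) and cells kept for 1 day in VPA at 1 mM (VPA) were each sampled with an antibody against CTCF and 1 against H3K27ac, with 3 libraries in each of the 4 groups. All groups were the same established line, and nothing in the labels says that the replicates came from separate cultures, so every p-value below measures only the spread between these libraries. The 6 input libraries were not analysed here.

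The lists held 36469 to 58782 CTCF peaks and 26299 to 40992 H3K27ac peaks per library. Sequencing depth is not given in the lists, but the genome background coverage behind the peak calls was alike in all 12 libraries (3.51 to 3.95 fragments). Replicate 1 stood apart for both antibodies and in both treatments: at promoter CTCF summits the local background was 43.8 fragments in CTRL 1 and 42.2 in VPA 1, against 9.97 to 11.3 in the other 4 CTCF libraries. At the other CTCF regions it was 6.78 to 7.82 in all 6, but those of over 70% GC had 47.7 in CTRL 1 and 42.8 in VPA 1 against 9.81 to 11.0 in the other 4 libraries, so the excess was not limited to promoters. Results that rest on replicate 1 are given with and without it, and its part in them was not otherwise tested. The cell line was checked on H3K27ac: PAX2, VIM, GAPDH, ACTB and EEF1A1 each had an annotated protein-coding transcript start inside H3K27ac peaks of 3 of 3 CTRL and 3 of 3 VPA libraries. ALB, HBB, INS, CD3E, PTPRC, UMOD and MYH6, which mark other tissues or differentiated kidney cells, had 0 of 3 in each treatment. At the single 5′ gene end used for promoters, PAX2 and EEF1A1 lay in no H3K27ac peak and ACTB lay in those of 1 of 3 CTRL libraries, so the promoter class misses active starts inside genes.

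The 12-base core of the CTCF motif, allowing 1 mismatch and read on both strands within 100 bp of the summit, was found in 7 of the 10 promoter regions that ranked highest in their lists. Their sites are shown because they carried the strongest CTCF signal at any promoter; each run is the motif strand read 5′ to 3′ on hg38, with the core in capitals and 9 bases on either side.
ABCA3 (chr16:2340880-2340909, + strand): cgcccatgcCCGGCAGAGGGCgctctgact
POLR2J3 (chr7:102572632-102572661, − strand): tcctccagcCCAACAGGGGGCgatgagccg
COMTD1 (chr10:75236104-75236133, − strand): ccggcgcggCCACCAGATCGCgcccggctc
ELOVL2 (chr6:11044541-11044570, − strand): gtcggtcgcCCAGGAGGGGGCgcgcgaggc
CLPB (chr11:72434303-72434332, − strand): tgagggtagCCACCGGGGGGCgccctggaa
SRCIN1 (chr17:38606504-38606533, − strand): ggcggcggcCCAGCAGGGGGCgccggggag
PSMD6 (chr3:64023542-64023571, − strand): cggaggtgtCCAGCAGAGGACgctgccggc
SRCIN1 matched the core exactly and the other 6 with 1 mismatch. The CLPB and POLR2J3 sites lay in exons of their genes, the ELOVL2 site in an exon of the antisense transcript ELOVL2-AS1, and the other 4 outside exons.

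The remaining 3 of the 10, at IBA57, COG2 and LRRC37A3, had no core match with 1 mismatch or fewer. The best match of each had 2 mismatches, just outside the limit. The window of 100 bases on either side of the COG2 summit (chr1:230642253-230642453, + strand, 128 bp upstream of the TSS and outside genes) is set beside that of SRCIN1 (chr17:38606449-38606649, + strand, 597 bp upstream of the TSS and outside genes). The pair shows a strong promoter peak without and with a core match within that limit. The core of SRCIN1 is in capitals and appears here as its reverse complement.
COG2: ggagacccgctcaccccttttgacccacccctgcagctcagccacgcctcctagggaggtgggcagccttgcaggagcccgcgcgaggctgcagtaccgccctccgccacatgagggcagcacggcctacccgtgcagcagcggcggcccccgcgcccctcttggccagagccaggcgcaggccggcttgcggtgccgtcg
SRCIN1: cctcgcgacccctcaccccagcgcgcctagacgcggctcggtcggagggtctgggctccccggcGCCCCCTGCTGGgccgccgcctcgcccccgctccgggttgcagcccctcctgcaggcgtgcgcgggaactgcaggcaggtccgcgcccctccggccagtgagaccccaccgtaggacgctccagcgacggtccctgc
The COG2 window was 73.6% G or C and the SRCIN1 window 77.6%, both above the median of all promoter regions (69.2%).

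A second set is shown from the clustered protocadherin genes, whose alternative first exons give neurons different cell surface identities. All 6 sites lay on the + strand of chromosome 5 (hg38), in the direction of the gene.
PCDHA6 (chr5:140828539-140828568): tctgtgtttCCACTGGAGGGCgcgtccgat
PCDHA7 (chr5:140834831-140834860): tctcggtttCCACTAGAGGGCgcgtccgat
PCDHA8 (chr5:140841769-140841798): tctcggtttCCGCTAGAGGGCgcgtccgat
PCDHA12 (chr5:140875920-140875949): tctcattttCCTCTAGAGGGCgcttctgat
PCDHA13 (chr5:140882716-140882745): actcgatttCCACTAGATGGCgcatccgat
PCDHB9 (chr5:141187070-141187099): tgttggaagCCACAAGGTGGCgctgcagac
The 5 alpha sites sat 596 to 633 bp downstream of the TSS, inside an exon of their gene, and the PCDHB9 site 42 bp upstream of it. PCDHA7 and PCDHA13 matched exactly.

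The third set holds exact matches between or at divergent genes, a pair that starts close together and is read in opposite directions, chosen as those of the highest rank.
GABPB2 and CDC42SE1 (chr1:151071207-151071236, + strand): cggaggtgaCCACTAGGGGGCggcgcggag
TPR and ODR4 (chr1:186375606-186375635, + strand): gacactgagCCACTAGAGGGCatcggtccc
FXYD7 and LGI4 (chr19:35143095-35143124, + strand): cactgggccCCAGCAGGGGGCgccccaccc
RUFY4 and TNS1 (chr2:218034903-218034932, − strand): tccttctcgCCACCAGGGGGCacagggagg
Each of these 4 regions had a CTCF peak in 6 of 6 libraries.

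Promoter CTCF regions held the CTCF motif less often than the other CTCF regions. The core with at most 1 mismatch was found in 1249 of 6532 promoter regions (19.1%, Wilson 95% interval 18.2 to 20.1%, which covers counting error only) and in 38.1% of the other regions (37.7 to 38.5%). An exact core was found in 209 promoter regions (3.20%) and in 10.3% of the others. The same search gave 3.83% around all 19111 TSS, 2.27% around TSS with no CTCF region and 1.22% at positions 2 kb from the promoter summits.

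The motif share of the promoter peaks in a library was 24.96%, 21.0% and 22.1% in CTRL and 23.1%, 21.4% and 23.6% in VPA, and in every library it lay below the motif share of the other peaks in the same list. Promoter minus other was −21.3 ± 3.63 percentage points (SD, n = 6 libraries), the difference having the same sign in 6 of 6 libraries. The exact two-sided sign-flip test gave p = 0.031, the smallest 6 libraries allow, and 0.0833 after Benjamini-Hochberg adjustment over the 8 tests, which misses 0.05. The libraries share most of their sites, so they repeat the measurement of the same DNA. Promoter and other regions also differed in base composition, and within 4 bands of GC content the difference was −19.7 ± 0.614 points (n = 6, the same exact p). Without both replicate 1 libraries it was −19.4 points.

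The motif share rose with the number of libraries in which a region was found. Of the promoter regions found in a single library, 5.09% held it, and the shares for those found in 2, 3, 4, 5 and 6 libraries were 7.59%, 9.04%, 11.5%, 14.5% and 26.6%. At the other regions it went from 22.2% in 1 library to 54.2% in 6. A promoter region found in all 6 libraries thus held the motif about as often as another region found in 3 (26.4%).

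**Figure D1:**
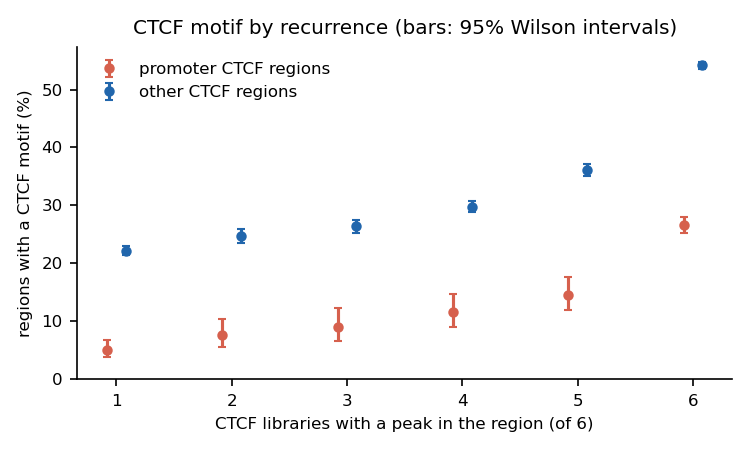
Share of CTCF regions with the CTCF motif within 100 bp of the summit (%, y axis) against the number of the 6 CTCF libraries with a peak (x axis), for promoter and other regions, with Wilson 95% intervals as error bars. Promoter regions went from 5.09% to 26.6% and lay below the other regions at every number of libraries.

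Promoter regions were GC-rich. The window of 100 bp on either side of the summit had a median GC content of 69.2%, against 51.2% at the other CTCF regions and 63.7% around all TSS, and the median ratio of observed to expected CpG was 0.805, 0.246 and 0.753. A CpG ratio of 0.6 or more, typical of CpG islands, was found for 76.7% of promoter regions and 10.5% of the others. Promoter regions without the motif had a median GC content of 69.7%, close to the 67.7% of those with it.

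Other promoter motifs were searched in the same windows on both strands, as a description of the sequence and not of what binds it. The GC box GGGCGG, the element read by Sp1-like factors, was in 53.6% of promoter regions, 11.0% of other CTCF regions and 47.2% of windows around all TSS. It overlapped the CTCF core in 122 of the 1249 motif regions (9.77%). The CCAAT box CCAAT, read by NF-Y, was in 14.1% of promoter regions and 25.7% of TSS windows. TATAAA, the TATA box, was in 1.75% and 7.15%, and the ETS motif CCGGAAG in 7.62% and 10.2%. The summits of promoter regions and the TSS windows are not the same positions, since a summit may lie up to 1 kb from the TSS.

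Summits clustered around the TSS on both sides. Of the 6532, 1700 (26.0%) lay within 100 bp and 3159 (48.4%) within 250 bp, with a median distance of 263 bp, and 47.5% were upstream. By annotation 40.9% of summits fell in an exon, 28.7% in an intron and 30.4% outside genes, whereas the other CTCF regions had 11.5%, 53.8% and 34.7%.

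Regions with the motif were placed differently from those without. Upstream of the TSS lay 60.9% of motif regions (58.2 to 63.6%) and 44.3% of regions without it (42.9 to 45.6%). The 100 bp just upstream of the TSS held 20.7% of motif regions and the 100 bp just downstream 6.08%, against 14.2% and 11.6% of the regions without it. Where the motif lay upstream of a gene with no divergent partner, it pointed along the gene in 467 of 744 regions (62.8%, 59.2 to 66.2%), and downstream in 227 of 451 (50.3%, 45.7 to 54.9%). These shares are over regions, which are not replicates, and were not tested.

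**Figure D2:**
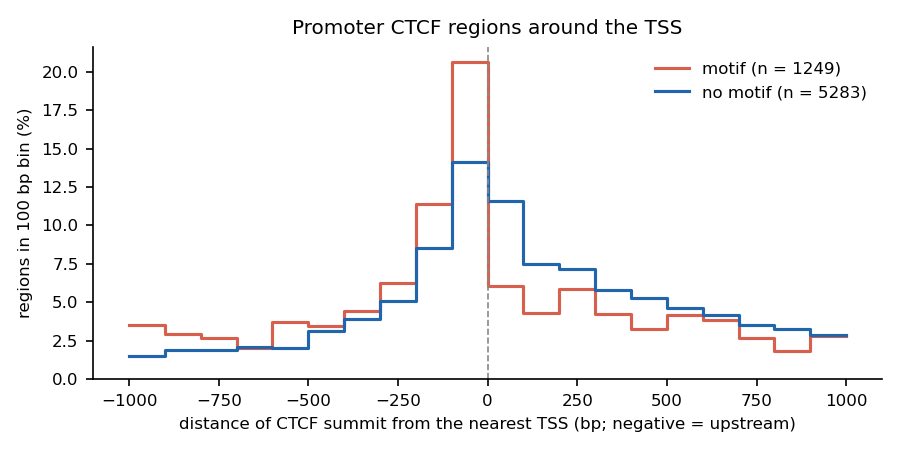
Share of promoter CTCF regions with and without the CTCF motif (%, y axis) in 100 bp bins of the distance from the summit to the nearest TSS (bp, x axis, negative upstream). Motif regions peaked in the bin just upstream of the TSS at 20.7% and dropped to 6.08% in the bin just downstream, where regions without the motif had 14.2% and 11.6%.

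At the limit of the class, 306 members had summits 900 to 1000 bp from the TSS and 250 regions just outside it lay at 1000 to 1100 bp. Of the 2 bands, 51.0% and 51.6% were found in all 6 libraries, 25.5% and 24.0% held the motif and 50.7% and 46.0% lay inside H3K27ac peaks of all 6 libraries.

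Divergent promoters carried CTCF more often than single ones: 757 of 1659 genes with a divergent partner starting within 1 kb had a region (45.6%, 43.2 to 48.0%), against 6308 of 17452 genes with none (36.1%, 35.4 to 36.9%). A region between such a pair counts for both genes, which raises the first share. In all, 716 regions lay within 1 kb of more than 1 TSS and 364 lay at divergent starts, 54 of them with the motif.

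The 10 highest ranked regions had mean within-list ranks of 99.86 to 99.98% by −log10 q-value. At ABCA3, which encodes a lipid transporter of lung surfactant, 7044, 3487 and 2885 fragments covered the summit in CTRL 1 to 3 and 10839, 3694 and 2966 in VPA 1 to 3. At COG2, a subunit of a Golgi tethering complex, the pileup was 5498, 2645 and 2248 in CTRL and 8710, 2745 and 2334 in VPA. In both, replicate 1 was highest in either treatment and the VPA and CTRL ranges overlapped. At IBA57, a mitochondrial iron-sulfur cluster factor, the local background was 143.5 fragments in CTRL 1 and 108.8 in VPA 1, and 28.7 to 35.6 in the other 4 libraries. At PSMD6, a proteasome subunit, the pileup was 4991, 2344 and 1926 in CTRL and 7511, 2336 and 1909 in VPA, nearly level in replicates 2 and 3, while the fold enrichment over local background was 76.6, 115 and 95.8 in CTRL and 144, 198 and 144 in VPA. POLR2J3 and LRRC37A3 have near-identical copies in the genome, so the placing of their reads is uncertain.

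With the motif, promoter peaks were far higher over their background than without it. The median fold enrichment in a library was 30.8 to 52.0 for motif regions and 6.42 to 9.06 for the others at promoters, and the ranges did not overlap. Regions with the motif were found in all 6 libraries in 79.7% of cases (995 of 1249) and regions without it in 52.1% (2751 of 5283). Their median width was 1058 and 753 bp.

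Against other CTCF regions, promoter peaks had a lower fold enrichment and were wider. The median fold enrichment at promoters was 9.44, 10.9 and 11.5 in CTRL and 8.32, 10.5 and 12.6 in VPA, and at other regions 9.88, 15.9 and 16.1 in CTRL and 9.94, 15.0 and 16.9 in VPA. On the log2 scale promoter minus other was −0.38 ± 0.19 (SD, n = 6, lower in 6 of 6 libraries, exact sign-flip p = 0.031, adjusted 0.0833), −0.99 ± 0.05 within bands of GC content and −0.50 without both replicate 1 libraries. The peaks were 101 ± 42.9 bp wider at promoters (n = 6, wider in 6 of 6 libraries, the same exact p). The summit pileup did not follow the fold: its median was 110 to 132 fragments at promoters and 116 to 126 elsewhere in replicates 2 and 3, and 359 and 315 against 100 and 85 in CTRL 1 and VPA 1. The local background was higher at promoters in every library, and its part in the fold was not tested. Split by motif, the fold went both ways. Promoter regions with the motif had the higher median fold, at 30.8, 47.1 and 45.3 in CTRL and 31.2, 52.0 and 48.6 in VPA. Other regions with the motif had 14.2, 34.6 and 34.0 in CTRL and 12.0, 31.8 and 34.4 in VPA. Among regions without it, promoters were lower in every library, at 6.42 to 9.06 against 7.79 to 11.0.

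**Figure D3:**
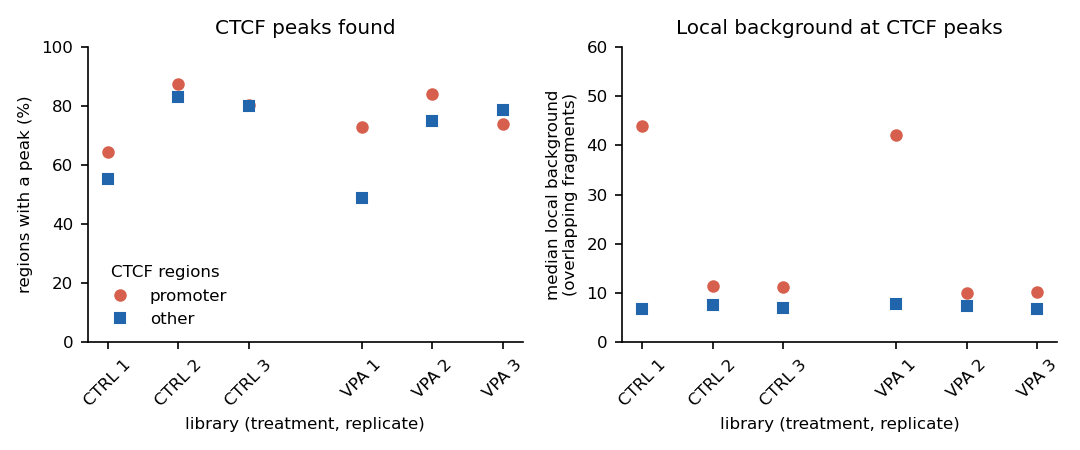
For each of the 6 CTCF libraries (x axis), the share of CTCF regions with a peak (%, left) and the median local background at the summits (overlapping fragments, right), with 1 point for promoter and 1 for other regions. CTRL 1 and VPA 1 had a promoter background of 43.8 and 42.2 and the other 4 libraries 9.97 to 11.3, and they found the smallest shares of promoter regions, 64.3% and 72.8%.

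The share of genes with CTCF at the promoter was counted in gene groups and set beside the 37.0% of all genes. The clustered protocadherins had it at 46 of 53 genes (86.8%). Among the other gene families, cytosolic ribosomal protein genes had it at 38 of 80 (47.5%), translation initiation factors at 24 of 53 (45.3%), potassium channels at 41 of 93 (44.1%), HOX genes, which pattern the body axis, at 17 of 39 (43.6%) and mitochondrial ribosomal proteins at 34 of 78 (43.6%). Proteasome subunits had it at 18 of 47, zinc finger genes at 189 of 496 and complex I subunits of the respiratory chain at 11 of 35. The replication-dependent histones had it at 19 of 69 (27.5%), olfactory receptors at 12 of 414 (2.90%) and keratins at 1 of 55 (1.82%). Apart from the protocadherins, olfactory receptors and keratins, the Wilson intervals of these groups included the 37.0% of all genes, as for HOX genes (29.3 to 59.0%).

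The protocadherin regions split by cluster. In the alpha cluster 12 of 15 genes had a region, 12 of 12 regions were found in all 6 libraries, their summits lay 196 to 607 bp downstream of the TSS (median 485 bp), and 5 held the motif. In the beta cluster 15 of 16 genes had a region within 192 bp of the TSS, 15 of 15 were found in each replicate 2 and 3 library but 3 in CTRL 1 and 2 in VPA 1, and 1 held the motif. In the gamma cluster 19 of 22 genes had a region, all within 79 bp of the TSS, with 12 found in all 6 libraries and 0 with the motif. Over the 3 clusters 1 of the 46 regions lay in an H3K27ac peak of any library.

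Of 17 genes of CTCF and its partners, 9 had a promoter region (52.9%, Wilson 31.0 to 73.8%). This interval, like those of the next 3 short lists, includes the 37.0% of all genes. ESCO1, an acetyltransferase of cohesin, and STAG1, a cohesin subunit, ranked highest (mean rank 99.3% and 98.6%), both with the motif and a peak in 6 of 6 libraries. PDS5B, PDS5A, CTCF itself and the cohesin loader NIPBL had a peak in 6 of 6 libraries without the motif. Of 9 zinc-dependent histone deacetylase genes, of which HDAC10 and HDAC11 belong to other classes than those VPA inhibits, 5 had a region (26.7 to 81.1%), with HDAC5, HDAC9 and HDAC10 in 6 of 6 libraries. Among 10 genes often given as bound by CTCF at the promoter, 6 had a region (31.3 to 83.2%), among them APP, without the motif, at a mean rank of 97.5%. Of the 4 genes the study discusses for VPA, CLDN1 alone had a region (4.56 to 69.9%), with the motif and in 6 of 6 libraries.

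Treatment with VPA left the number of promoter CTCF peaks within the spread of the libraries. A peak was called at 4202, 5706 and 5255 promoter regions in CTRL 1 to 3 and at 4758, 5498 and 4836 in VPA 1 to 3, or 5054 ± 772 and 5031 ± 407 (SD, n = 3 each, exact permutation p = 1, where 3 against 3 cannot go below 0.1). The groups overlapped. By replicate number the change went both ways: 874 regions were found in VPA only and 318 in CTRL only in replicate 1, 476 and 684 in replicate 2, and 263 and 682 in replicate 3.

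Set against the other CTCF regions, the share of promoter regions with a peak moved by +4.78 percentage points more in VPA than in CTRL (exact permutation p = 0.8, n = 3 each). Per library the promoter share minus the other share was 9.23, 4.36 and 0.355 points in CTRL and 23.9, 9.09 and −4.73 points in VPA. VPA 1 was the highest value and VPA 3 the lowest, so the VPA libraries lay on both sides of CTRL. Within bands of GC content the difference between treatments was −0.44 points (exact permutation p = 1). The 2 treatments did not differ beyond their spread in the motif share of promoter peaks, at 22.7 ± 2.04% (CTRL) and 22.7 ± 1.12% (VPA) (exact permutation p = 1, n = 3 each).

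The change in replicate 1 differed with GC content. From the band under 50% GC to the bands of 50 to 60%, 60 to 70% and over 70%, the share of promoter regions with a peak in VPA 1 minus CTRL 1 was −0.658, −16.4, +8.11 and +18.4 points. The other CTCF regions moved by +7.29, −26.1, −0.0765 and +15.3 points in replicate 1, with the sign of the promoter regions in 2 of the 4 bands. In replicates 2 and 3 the values over all bands and both classes lay between −19.4 and +1.25 points, the lowest at other regions under 50% GC in replicate 2.

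**Figure D4:**
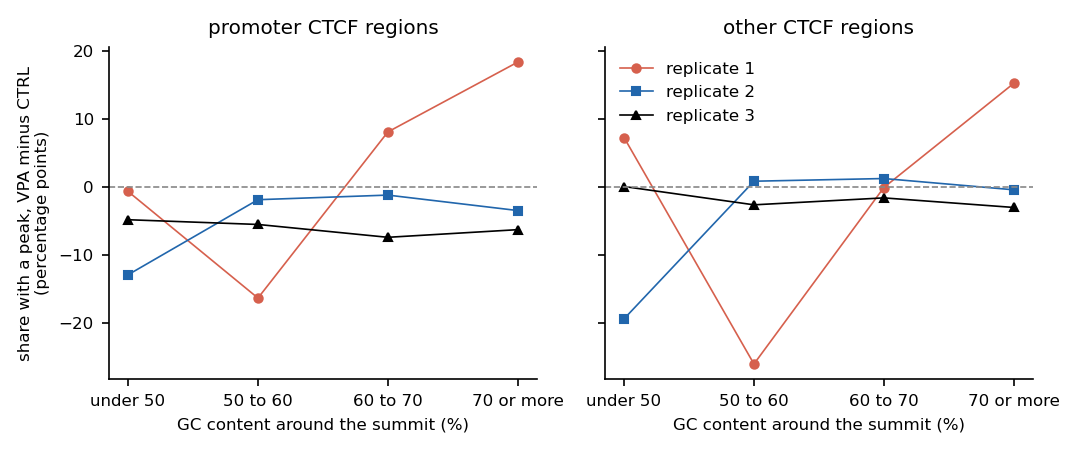
Share of CTCF regions with a peak, VPA minus CTRL of the same replicate number (percentage points, y axis), by GC content around the summit (x axis), for promoter and other regions. In replicate 1 promoter regions moved from −16.4 points at 50 to 60% GC to +18.4 points over 70%.

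Promoter CTCF regions found in 3 of 3 libraries of 1 treatment and 0 of 3 of the other were few: 10 in VPA alone and 9 in CTRL alone, which is 0.153% and 0.138% of the members, where 0.186% and 0.326% of all CTCF regions were so placed. Leaving out both replicate 1 libraries, 54 were found in VPA alone and 152 in CTRL alone, or 0.843% and 2.37% of 6409 promoter regions beside 1.32% and 2.92% of all 66748 regions. With any single library left out, 14 to 56 were in VPA alone and 15 to 107 in CTRL alone, the last without CTRL 1. The shares of all regions with 1 library left out are not given here, so these counts say nothing particular to promoters. All of those named ranked low in their lists. EVPLL, a relative of the cell junction protein envoplakin, had the highest mean rank among those only in VPA (29.2%), with a pileup of 160, 54 and 43 fragments and the motif. PSMB10, a subunit of the immunoproteasome, led those only in CTRL (22.9%), with 105, 74 and 61 fragments and no motif. The others named were WASHC1, ENSG00000289701, FRYL and N4BP2L2 in VPA and E2F5, SGK1, MDN1 and TMEM35B in CTRL, at mean ranks of 14.0 to 21.7%. WASHC1 has near-identical copies at chromosome ends and its reads may be misplaced.

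The CTCF signal at promoters was compared in limma on the log2 summit pileup, centred per library, over 27794 CTCF regions called in every library, 3746 of them at promoters. No promoter region passed an adjusted p of 0.05 (0 of 3746, with 0 higher and 0 lower, beside 0% of all regions), and 0 had an unadjusted p under 0.05. With the deposited fold enrichment 2 were higher and 2 lower at such a p, beside 39 and 88 of all regions, and with replicate number as a block 30 were higher and 3 lower, beside 400 and 37 of all regions. The median standard error of a promoter region was 1.00 on the log2 scale.

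The 5 promoter regions of smallest p in each direction were TTC9B, SLC32A1, NALF1, ATCAY and KCNA1 (higher) and SCG2, DDTL, MYOM3, CCDC163 and RPL27 (lower). SLC32A1 encodes the vesicular GABA transporter, KCNA1 a voltage-gated potassium channel and RPL27 a ribosomal protein. At TTC9B the pileup was 369, 179 and 137 in CTRL and 859, 304 and 247 in VPA, a log2 change of 1.26 ± 0.94 (SE, adjusted p = 1.00 in limma). At SCG2, a secretogranin of secretory granules, it was 141, 94 and 106 in CTRL and 29, 53 and 40 in VPA (−1.19 ± 0.92, limma adjusted p = 1.00). At TTC9B the 2 groups overlapped, and at SCG2 every VPA value was below every CTRL value. At DDTL, MYOM3 and RPL27 the VPA 1 value was far below VPA 2 and VPA 3. For example, RPL27 had 58 fragments against 472 and 458, with 422, 593 and 521 in CTRL.

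Without both replicate 1 libraries the spread was smaller, with a median standard error of 0.24, and 31 promoter regions were called: 13 higher in VPA and 18 lower of 4402 tested, beside 0.904% and 0.623% of all 45129 regions. This leaves 2 libraries a group and was chosen after the data were seen. With the deposited fold enrichment on the same 4 libraries 0 were called. At an unadjusted limma p under 0.05, 110 of the 4402 were higher and 62 lower, beside 1689 and 854 of all 45129 regions. With the replicate block 7 were called higher and 22 lower, beside 0.534% and 1.7% of all regions. The shares called at promoters were 0.295% and 0.409% without the block and 0.159% and 0.4998% with it, each below that of all regions.

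Among the higher ones were ISOC2, CDH1, which encodes the adhesion protein E-cadherin, SV2B, a synaptic vesicle protein, GRIN3A, an NMDA receptor subunit, and TWIST1, a transcription factor of mesenchyme. At CDH1 41 and 45 fragments covered the summit in CTRL 2 and 3 and 98 and 77 in VPA 2 and 3, a log2 change of 1.22 ± 0.28 (SE, limma adjusted p = 0.00557). At ISOC2 the pileup was 100 and 75 in CTRL and 210 and 161 in VPA (1.29 ± 0.25, limma adjusted p = 0.000434). At THAP10, which encodes a THAP-domain protein, it was 280 and 243 in CTRL and 110 and 102 in VPA (−1.09 ± 0.24, limma adjusted p = 0.00333). In these 3 regions, picked from those called on the same values, the VPA and CTRL values did not overlap. At the lower regions GOLGA8B, HOMEZ, PPP4R2, PATL2 and BDH2 the VPA 2 value was far below VPA 3, for example 61 against 198 fragments at GOLGA8B, a gene with near-identical copies. None of these genes was called with replicate 1 included. TTC9B, KCNA1, NALF1 and ATCAY, named above for their smallest p, were also among those called higher without replicate 1. TTC9B then had a log2 change of 1.01 ± 0.23 (SE, limma adjusted p = 0.00557). SLC32A1, SCG2, DDTL, MYOM3, CCDC163 and RPL27 were not called without it.

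Most promoter CTCF regions lay in acetylated chromatin. Of the 6532 summits 4429 (67.8%) were inside H3K27ac peaks of all 6 H3K27ac libraries, 848 (13.0%) of none, and 1234 of some libraries in a mixed pattern. Of the other CTCF regions 5.51% were inside peaks of all 6 and 81.6% of none. Regions with the motif were acetylated in all 6 less often than those without it (51.8% against 71.6%), and of the 848 regions never in an H3K27ac peak 31.4% held the motif, against 14.6% of the 4429 always in one.

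The share of promoter CTCF summits inside H3K27ac peaks was 69.4%, 82.5% and 82.1% in CTRL and 73.6%, 85.0% and 84.5% in VPA. The means were 78.0 ± 7.47% and 81.0 ± 6.46% (SD, n = 3 each, exact permutation p = 0.5). Replicate 1 was lowest in both treatments, and each VPA library lay above the CTRL library of its number. At other CTCF regions the share was 8.66 ± 1.78% in CTRL and 13.0 ± 2.46% in VPA. The difference in change between promoter and other regions was −1.28 points (exact permutation p = 0.6, n = 3 each).

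Summits inside H3K27ac peaks of 3 of 3 VPA and 0 of 3 CTRL libraries numbered 21 at promoters (0.321%), where 0.679% of all CTCF regions were so placed, and 0 showed the reverse (up to 0.0588%), where 0.00286% of all did. By CTCF rank the first were PEX5, the import receptor of peroxisomes, AQP7, a glycerol channel, the TNFAIP8L2 and SCNM1 promoters, RTN4RL1, OLFML3, FMO4, VKORC1, which recycles vitamin K, CCL27, RGS4 and SLC8B1. The CTCF peak itself was present in both treatments at all 10 of these. At PEX5 the CTCF pileup was 1211, 714 and 703 fragments in CTRL and 918, 762 and 628 in VPA, in overlapping ranges. In CTRL a mean of 78.0% of promoter summits and 8.66% of other CTCF summits already lay inside H3K27ac peaks. Such summits could not be in VPA peaks alone, so 0.321% beside 0.679% does not show that promoters gained H3K27ac less readily.

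The height of H3K27ac peaks was compared in the same way over 18407 H3K27ac regions called in every library, of which 4967 held the summit of a promoter CTCF region. Relative to the median H3K27ac region of each library, 319 of them were higher in VPA and 2135 lower (limma, adjusted p under 0.05), or 6.42% and 43.0%, beside 11.9% and 27.1% of all H3K27ac regions. Their median log2 change was −0.21, against −0.05 for all. The call did not hold on the deposited fold enrichment, where 0 were called either way. At an unadjusted limma p under 0.05, 62 were higher and 501 lower, beside 374 and 1141 of all 18407 regions. Without both replicate 1 libraries that measure called 51 higher and 603 lower of 5215, beside 3.03% and 6.58% of all regions. The pileup without them called 310 higher and 3227 lower, beside 16.5% and 36.4%. With replicate number as a block 524 were higher and 2703 lower, beside 24.8% and 35.3%. Scaling by background coverage moved the median of all regions to −0.28 and left 32 higher and 1339 lower, beside 4.54% and 17.1%. The number higher was 190 of 4957 without VPA 2 and 174 of 4955 without VPA 3, beside 1064 of all 18793 and 1107 of all 18572 regions. Among regions above the median pileup, 155 of 3867 were higher and 2162 lower, beside 431 and 4893 of all 9200. Their median log2 change was −0.263, close to the −0.245 of all regions of that height and the −0.233 of those without a promoter CTCF summit. Most of the difference from all H3K27ac regions was thus not seen among the higher peaks.

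Promoters without a CTCF summit moved the same way. Of their 4003 H3K27ac regions 322 were higher and 1505 lower, and of 9437 regions away from promoters 1541 were higher and 1342 lower. The median pileup per library on the centred log2 scale was 0.86, 0.78 and 0.76 in CTRL and 0.65, 0.58 and 0.58 in VPA for the regions with a promoter CTCF summit. Every VPA value was below every CTRL value, which with 3 against 3 is the smallest exact permutation p of 0.1. For promoters without CTCF the values were 0.72, 0.69 and 0.66 in CTRL and 0.57, 0.53 and 0.54 in VPA, and the change differed from that with CTCF by −0.05 (exact permutation p = 0.1). On the fold enrichment the difference was −0.04 (exact permutation p = 0.3). The median width of the regions with a promoter CTCF summit was 1832, 2262 and 2237 bp in CTRL and 2082, 2720 and 2565 bp in VPA, wider in VPA for each replicate number but with overlapping ranges.

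**Figure D5:**
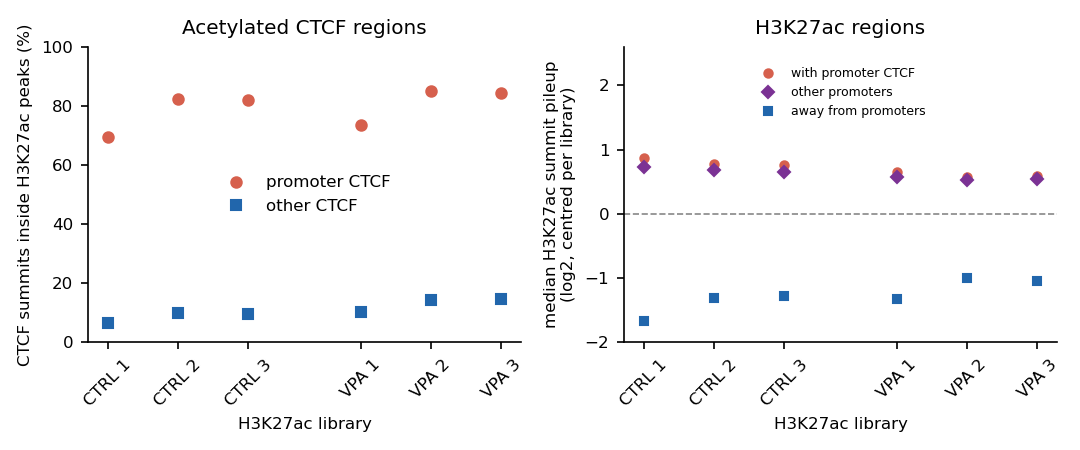
Left, share of CTCF summits inside H3K27ac peaks (%, y axis) for promoter and other CTCF regions in each H3K27ac library. Right, median summit pileup of H3K27ac regions (log2, centred per library, y axis) with a promoter CTCF summit, at other promoters and away from promoters; the first lay at 0.76 to 0.86 in CTRL and 0.58 to 0.65 in VPA, relative to the median region of each library.

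Among the acetylated promoters with CTCF, 311 of 850 H3K27ac regions with a motif-bearing CTCF region were lower and 78 higher, and 1839 of 4150 without the motif were lower and 242 higher. The gene groups moved unevenly. H3K27ac was lower at 33 of 36 cytosolic ribosomal protein regions (0 higher, median −0.61), 11 of 11 HOX regions (median −0.81), 8 of 9 of CTCF and its partners (median −0.53) and 10 of 14 replication-dependent histone regions (median −0.42), beside 43.0% of all with CTCF and a median of −0.21. With background scaling 30, 11, 8 and 8 were lower, and on the fold enrichment 0 in each group. Among the CTCF partners, MAZ had its CTCF peak in only 1 VPA library, at a mean rank of 0.18%. RAD21 had its CTCF peak in 2 CTRL libraries and 1 VPA library, at a mean rank of 5.93% and without the motif. Mitochondrial ribosomal proteins had 11 of 33 lower and 2 higher, zinc finger genes 48 of 160 lower and 15 higher, translation initiation factors 10 of 22 lower and 3 higher, and proteasome subunits 9 of 17 lower and 1 higher. Potassium channels had 2 of 15 lower and 1 higher, complex I subunits 2 of 10 lower and 0 higher, and the histone deacetylases 1 of 4 lower (HDAC4) and 1 higher (HDAC11).

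The 10 largest falls were at HOXD8, NRP1, BMI1, HOXC10, ZEB2, HOXD3, SALL1, PRTG, HOXD11 and MLLT3, 4 of them HOX genes. At HOXD8 the H3K27ac pileup was 996, 647 and 582 fragments in CTRL and 380, 228 and 246 in VPA, a log2 change of −1.19 ± 0.12 (SE, limma adjusted p = 0.000339). BMI1, a Polycomb protein, had 992, 723 and 638 in CTRL and 359, 286 and 270 in VPA (−1.16 ± 0.08, limma adjusted p = 0.000141). NRP1, a receptor for semaphorins and VEGF, had 595, 415 and 372 in CTRL and 243, 145 and 154 in VPA (−1.17 ± 0.12, limma adjusted p = 0.000256). At each of these 3, picked from the largest falls, every VPA value was below every CTRL value. None of the CTCF regions inside these 10 H3K27ac regions held the motif. Those at HOXD3 and MLLT3 had a CTCF peak in only 1 CTRL and 1 VPA library, and those at SALL1 and HOXD11 in 1 CTRL and 2 VPA libraries. The CTCF gene was among the lower ones, with 1154, 834 and 725 in CTRL and 689, 449 and 500 in VPA (−0.53 ± 0.09, limma adjusted p = 0.00243).

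The 10 largest rises were at MAST1, SLITRK1, TMEFF2, ELL, JUP, ACTB, ACHE, BICDL1, PIP5KL1 and HSD17B14. MAST1, a microtubule-associated kinase, had an H3K27ac pileup of 107, 95 and 80 in CTRL and 333, 223 and 253 in VPA (log2 change 1.70 ± 0.10, limma adjusted p = 0.000141). SLITRK1, a synaptic adhesion protein, had 42, 44 and 42 in CTRL and 123, 114 and 106 in VPA (1.61 ± 0.18, limma adjusted p = 0.000405). ACHE, the acetylcholine-degrading enzyme, had 90, 59 and 58 in CTRL and 162, 141 and 151 in VPA (1.35 ± 0.15, limma adjusted p = 0.000354). In all 3, picked from the largest rises, the VPA values lay above the CTRL values. The ACTB value belongs to the annotated 5′ end of the gene, with 95, 74 and 86 in CTRL, and not to the start of its common transcript. Of the CTCF regions inside these 10 H3K27ac regions, those at ACTB, ACHE, PIP5KL1 and HSD17B14 held the motif. Those at MAST1 and PIP5KL1 had a CTCF peak in only 1 CTRL and 1 VPA library.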

How the data were processed

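ChIP-seq peak lists of HEK293T cells (CTRL and VPA, CTCF and H3K27ac, 3 libraries each) were taken as the authors deposited them. Per the study's methods and the submitters' processing notes, reads were aligned to hg38 with Bowtie2 and peaks were called per library with MACS3 (3.0.0a7 in the notes) at a q threshold of 0.05. Whether the input libraries entered the calls, and how duplicates were treated, is not given in the sources used here. The deposited fold enrichment is a ratio of the summit pileup to the local background, the deposited −log10 p-value and −log10 q-value are those of the summit, and the deposited score is a rescaled q-value that was not used.

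Whole summit pileups and local backgrounds were recovered from the deposited fold and −log10 p-value (at least 99.9975% of values within 0.05 of a whole number). They count fragments and follow depth, background and antibody yield alike, and a region without a called peak has no value. Peaks sharing 1 bp were merged per antibody. Summits were set against GENCODE release 44, and motifs were searched within 100 bp of the summit. Library measures were compared by exact two-sided permutation tests (20 splits) or sign flips over 6 libraries, adjusted over 8 tests. Signal was compared with limma 3.58.1 (R 4.3.3, trend and robust, each library centred on its median) over all regions with a peak in 6 of 6 libraries, with Benjamini-Hochberg adjustment at 0.05. The scripts were tested on simulated data.

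For the block, replicate numbers were taken as pairing the libraries. Deviations from the group means of same-numbered CTRL and VPA libraries correlated at 0.79, 0.54 and 0.85 for CTCF and at 0.82, 0.48 and 0.59 for H3K27ac. CTRL 2 with VPA 3 and CTRL 3 with VPA 2 gave 0.85 and 0.57 for CTCF and 0.49 and 0.60 for H3K27ac. The values thus set replicate 1 apart, but cannot show pairing by number between replicates 2 and 3. The main comparisons have no block, as the study's methods state none.

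Named genes were the 10 promoter regions of highest mean rank, up to 10 per direction past the limma threshold (5 of smallest p where none passed), up to 5 per direction found in 1 treatment only, up to 10 by H3K27ac in 1 treatment only, and genes of the lists. CDH1, ISOC2, THAP10 and the other genes called without replicate 1, and the members described in full, were chosen after their values were seen. The members and lists were chosen with earlier results of these data known. Alternatives were stricter peaks, equal list lengths, other promoter windows, other scalings, single libraries left out and GC bands. Some items of these lists are not reported here.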

Additional observations from a re-analysis of the deposited data

Results flagged for a closer look

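The change of H3K27ac pileup with VPA differed between regions that held a promoter CTCF summit and regions away from promoters. On the log2 scale, centred per library, the first moved by −0.21, −0.20 and −0.17 in replicates 1 to 3 and the second by +0.35, +0.31 and +0.23, so the difference was −0.49 (exact permutation p = 0.1, the smallest 3 against 3 allow). It had the same sign in all 3 replicate numbers. On the deposited fold enrichment it was −0.39 (exact permutation p = 0.5), with CTRL 1 and VPA 1 far from the other libraries. Promoters without a CTCF summit moved by −0.14. The 2 classes also differed in height, with CTRL means of 0.80 and −1.42 on the centred log2 pileup scale. Among H3K27ac regions above the median pileup, the median log2 change was −0.263 with a promoter CTCF summit. It was −0.233 without one, other promoters included. The part of peak height in the flagged difference was not tested.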

How the results depend on the processing

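Of 212 results recomputed under an alternative, 125 stayed the same, 22 lost an unadjusted p under 0.05 with the same direction, 44 moved and 21 turned sign. A difference stayed the same if it kept its sign and its side of 0.05. With 3 against 3 the exact permutation p cannot go below 0.1, so treatment differences could change only in sign. A count stayed the same if equal or within a ratio of 1.5, and otherwise moved. For the share found in all libraries the limit was about its Wilson interval. None of the 22 had passed after adjustment (0.0833). Of them, all but 1 are the 3 promoter minus other comparisons with libraries left out, where the exact sign-flip test cannot go below p = 0.0625 with 5 libraries or 0.125 with 4. The differences between treatments that turned sign were within the spread of the libraries. For other moves the cause was not tested.

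Leaving out 1 library at a time, promoter regions with a peak changed with VPA by −450.7 to 306.8, the promoter minus other share by −2.49 to 12.1 points, the motif share of promoter peaks by −0.838 to 1.14 points, the H3K27ac share by −1.26 to 6.77 points and promoter minus other H3K27ac by −4.56 to 1.03 points. Promoter minus other ranged from −21.8 to −19.4 points for the motif, −0.45 to −0.36 for log2 fold and 82.8 to 107.7 bp for width. Regions in VPA alone numbered 14 to 56, in CTRL alone 15 to 107 (107 without CTRL 1), and 58.6 to 62.5% were in all libraries left. Shares of all CTCF regions are not given for the counts in 1 treatment alone, which say nothing particular to promoters. CTCF calls stayed at 0. Higher H3K27ac calls went from 174 of 4955 without VPA 3, beside 1107 of all 18572, to 300 of 5102 without CTRL 1, beside 2119 of all 20352. Lower calls went from 1620 of 4957 without VPA 2, beside 3821 of all 18793, to 2211 of 4999 without VPA 1, beside 5040 of all 18789.

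Without both replicate 1 libraries the promoter minus other share changed by −0.0101 points, the motif difference was −19.4 points, log2 fold −0.50 and width 76.75 bp, with 54 regions in VPA alone, 152 in CTRL alone and 68.7% in all 4. CTCF calls were then 13 higher and 18 lower, and H3K27ac calls 3227 lower. With equal list lengths the peak difference was 227, the motif share −0.66 points, 0 regions were in VPA alone and 53.7% in all 6. With summits within 500 bp the peak difference was 19.3, the motif share −0.105 points, log2 fold −0.30 (exact sign-flip p = 0.0625), regions in 1 treatment alone 4 and 4, and 58.8% were in all 6. With every protein-coding transcript start the motif share was −0.21 points, regions in 1 treatment alone 18 and 20, and 55.98% were in all 6. A −log10 q-value of at least 5 gave 60.2% in all 6. An exact motif gave −0.0581 points, and GC bands −0.44 points for the promoter minus other share. For equal list lengths, the 500 bp window and every transcript start, shares of all regions in 1 treatment alone are not given. Those counts say nothing particular to promoters.

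Pairing the libraries by a replicate block raised the H3K27ac calls from 319 to 524 higher and from 2135 to 2703 lower, and left CTCF at 0. Without replicate 1 and with the block 7 CTCF regions were higher and 22 lower. Without the block, H3K27ac calls were 32 higher and 1339 lower scaled by background, 0 and 0 on fold enrichment, and 51 and 603 on fold without replicate 1. Above the median pileup 155 were higher and 2162 lower of 3867, beside 431 and 4893 of all 9200. The median log2 change there was −0.263, beside −0.245 for all.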
